A study of Mus musculus with 10 samples.

Results

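The kappa light chain constant gene Igkc and the 5 kappa J segments Igkj1 to Igkj5 were followed across 5 groups of mouse B cell libraries. These 6 genes were chosen by name, from 46959 gene entries in the table of counts. All 6 had reads in all 10 libraries, with 2 libraries per group. The 6 femoral (bone marrow) libraries came from C57BL6 mice and were lysed without culture. They form the groups deltaEmu, RAG2_deficient (deficient for the recombinase subunit RAG2) and 2KO. The labels do not spell out 2KO, and the series' design text speaks of mice that lack the heavy chain enhancer Eµ and the 3′ regulatory region. The 4 spleen libraries came from wild-type cells without the surface protein CD43, kept in culture for 48 h in the presence of LPS (lipopolysaccharide, 5 µg/ml) and IL4 (interleukin 4, 20 ng/ml, named in the growth protocol but not in the design text). The group LPS_IL4 had no further agent. LPS_IL4_SAHA also received SAHA, an inhibitor of histone deacetylases, given as 200 nM in the names and 200 ng/ml in the protocol. The strain field of the spleen samples says 129, while the growth protocol names Black-6 controls. Mice were 8 to 10 weeks old, and the design text describes the RNAs as pools. Femoral B cells with intact enhancers and RAG2 were not analysed here.

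A kappa light chain is built from a V segment, a J segment and the constant gene. The recombinase of RAG1 and RAG2 joins 1 V segment to 1 J segment in the DNA, and splicing then connects the J segment to Igkc. Before that joining, B cell precursors make germline transcripts that start upstream of the J segments and also reach Igkc. Kappa chains replace the surrogate light chain at the small pre-B stage, and plasma cells make them in very large amounts. Eµ and the 3′ regulatory region lie in the heavy chain locus on chromosome 12, whereas kappa has enhancers of its own on chromosome 6.

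The J sequences are shown because each J gene in the table is a very short target for reads, and because 1 of the 5 is not functional. They are the sense coding sequences in GENCODE M21 (GRCm38), chromosome 6, forward strand, and capitals mark TTCGG.
Igkj1 (chr6:70722562-70722599): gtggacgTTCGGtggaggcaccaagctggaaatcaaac
Igkj2 (chr6:70722916-70722954): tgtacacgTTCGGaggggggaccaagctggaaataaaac
Igkj3 (chr6:70723223-70723260): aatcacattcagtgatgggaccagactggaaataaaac
Igkj4 (chr6:70723548-70723585): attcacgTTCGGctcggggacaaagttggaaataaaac
Igkj5 (chr6:70723886-70723923): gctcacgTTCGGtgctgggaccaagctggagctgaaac
TTCGG, searched on both strands, lay on the sense strand of 4 of the 5 kappa J segments, and Igkj3 did not hold it. Among all 84 J segments of antigen receptors in GENCODE M21, 19 (22.6%) held TTCGG, none of them heavy chain J segments. Igkj3 is known as a J segment that functional kappa chains do not use. Over their last 38 bases, the 10 pairs of kappa J segments were 68.4% to 84.2% identical, with Igkj1 and Igkj2 the closest pair. The longest run of bases shared by any pair was 14.

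Igkc follows 2507 bases after the end of Igkj5, as a single exon of 532 bases at chr6:70726435-70726966. Its coding part has 320 bases, followed by a 3′ untranslated part of 212 bases with the stop codon. The start of the exon, at chr6:70726435-70726474, is shown because splicing joins it to the end of a J segment.
Igkc: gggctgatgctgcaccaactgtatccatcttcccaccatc
In the table the J genes have 38 to 43 bases, and neighbours are 264 to 316 bases apart. A read that crosses from a J segment into Igkc touches both genes. How such reads were counted is not given in the sources used here.

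Total counts ran from 17710154 to 25544275 per library. Levels are CPM (the usual unit of counts scaled to library size, here with TMM factors over all 10 libraries), in which 1 CPM corresponds to 16.87 to 24.89 counts. The columns of the table carry numbers only and were assigned by the sequencing index in each sample's description, and the titles would assign 8 of 10 differently. With the index, Rag1 had 141 to 920 CPM in the femoral libraries and 0 to 0.0418 CPM in the spleen libraries. Rag2 had 21.8 and 23.9 CPM in RAG2_deficient and 13.3 to 20.4 CPM in the other femoral libraries, and the labels do not give the deleted part, so this count checks nothing. In the femoral libraries, 9 erythroid markers summed to 2457 to 15436 CPM and 10 neutrophil markers to 7156 to 21039 CPM, beside 467 to 942 CPM for 10 mature B cell markers. The Y-linked gene Ddx3y had 0 to 0.237 CPM in RAG2_deficient and 44 to 128 CPM elsewhere, so sex and genotype cannot be told apart in comparisons with that group. Among the spleen libraries, leaving out LPS_IL4 replicate 4 moved the number of genes called for SAHA from 0 to 2670, and leaving out LPS_IL4 replicate 6 moved it to 5. In libraries of mixed cells, fewer cells of a type and less RNA per cell cannot be told apart.

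Igkc was abundant in 3 groups and scarce in the other two. In LPS_IL4 it had 1137 and 787 CPM, and in LPS_IL4_SAHA 974 and 1000 CPM. The deltaEmu libraries had 613 and 658 CPM. The RAG2_deficient libraries had 5.34 and 4.61 CPM, from 90 and 95 reads, and the 2KO libraries 5.29 and 3.56 CPM, from 111 and 80 reads. The order of the group means was LPS_IL4_SAHA (987 ± 18.8 CPM, SD, n = 2), LPS_IL4 (962 ± 248), deltaEmu (635 ± 32.5), RAG2_deficient (4.97 ± 0.516) and 2KO (4.42 ± 1.22). The first pair of neighbours overlapped, and so did the last. Between LPS_IL4 and deltaEmu the libraries did not overlap, and the deltaEmu mean was 128 times that of RAG2_deficient.

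**Figure D1:**
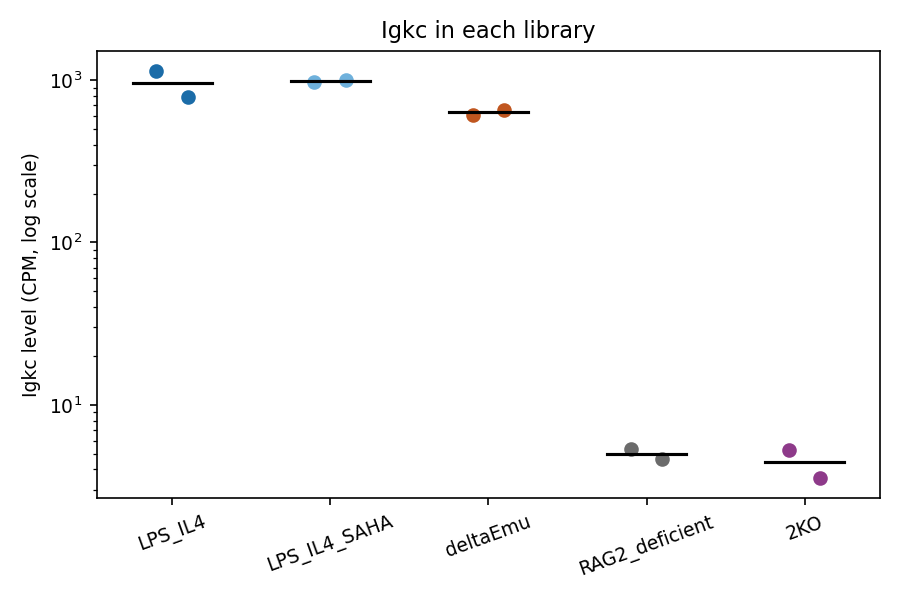
Igkc in each of the 10 libraries, in CPM on a log axis, with points for libraries and a black line for the mean of each group of 2. The 2 spleen groups and deltaEmu lie at 613 to 1137 CPM, and RAG2_deficient and 2KO at 3.56 to 5.34 CPM.

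The J segments had a similar order of groups over a much smaller range. Igkj2 had 7.43 and 7.59 CPM in LPS_IL4, 6.85 and 5.63 in LPS_IL4_SAHA, 1.03 and 2.86 in deltaEmu, 0.474 and 0.436 in RAG2_deficient, and 0.238 and 0.312 in 2KO. No 2 groups overlapped for Igkj2. For any 2 groups of 2 libraries, an exact permutation p cannot fall below 0.333, so a lack of overlap is weak evidence here and below. Igkj3, the segment that functional chains do not use, had 8.45 and 7.51 CPM in LPS_IL4, 8.56 and 5.59 in LPS_IL4_SAHA, 1.38 and 2.68 in deltaEmu, 0.296 and 0.485 in RAG2_deficient, and 0.333 and 0.356 in 2KO. Its levels overlapped between the spleen groups and again between RAG2_deficient and 2KO.

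Igkj4 had 7.26 and 7.87 CPM in LPS_IL4, 9.69 and 5.14 in LPS_IL4_SAHA, 1.87 and 2.06 in deltaEmu, 0.237 and 0.436 in RAG2_deficient, and 0.19 and 0.223 in 2KO. Igkj5, the J segment nearest to Igkc, had 9.95 and 8.56 CPM in LPS_IL4, 10.4 and 8.16 in LPS_IL4_SAHA, 1.68 and 2.06 in deltaEmu, 0.356 and 0.485 in RAG2_deficient, and 0.667 and 0.223 in 2KO. For both, all 4 spleen libraries exceeded deltaEmu, and deltaEmu exceeded the other femoral libraries. Igkj1, the segment farthest from Igkc, was the lowest of the 5 in 9 of 10 libraries. It had 3.34 and 2.57 CPM in LPS_IL4, 3.01 and 2.12 in LPS_IL4_SAHA, 0.443 and 0.628 in deltaEmu, 0.296 and 0.339 in RAG2_deficient, and 0.0952 and 0.0891 in 2KO. Its 2KO values rest on 2 reads in each library, against 5 and 7 reads in RAG2_deficient and 9 and 11 in deltaEmu.

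**Figure D2:**
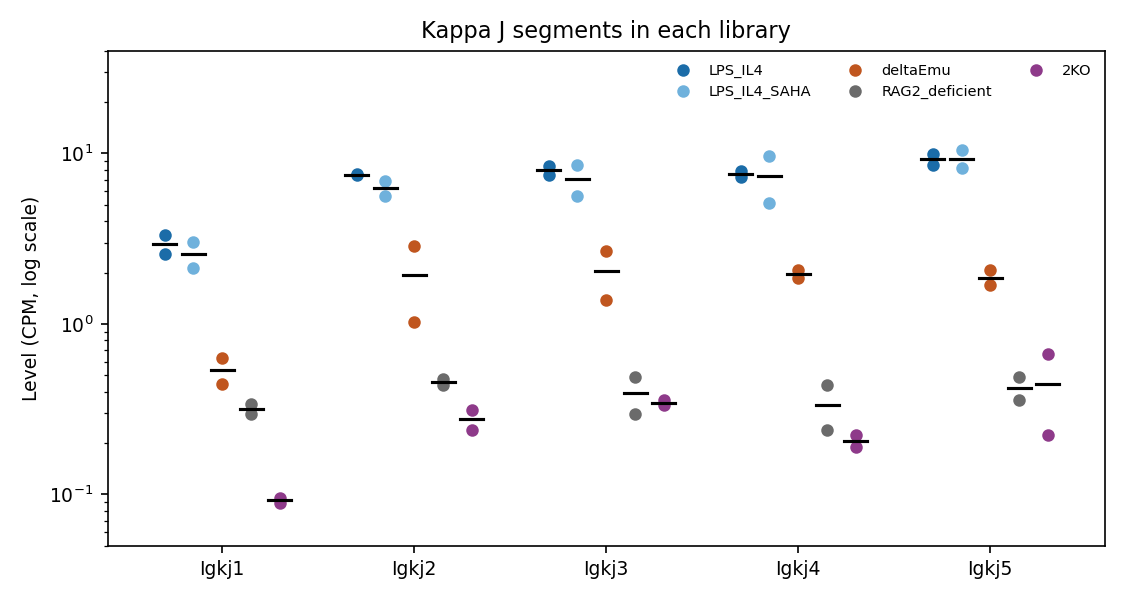
Levels of Igkj1 to Igkj5 in each library, in CPM on a log axis, with colours for the 5 groups and black lines for the means of 2 libraries. Every J segment is highest in the spleen groups, and the means of Igkj1 lie below those of the other segments, by little in RAG2_deficient (0.318 against 0.337 for Igkj4).

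The title asks what deleting enhancers does to transcription. Femoral B cells with intact enhancers and RAG2 were not analysed, so 2KO was set against deltaEmu, which by its name already lacks Eµ. The 2 groups also differ in markers of other cells (9 of 9 erythroid markers higher in 2KO), and genotype and cell mix cannot be told apart. Igkc fell 142-fold in 2KO (log2 -7.15 ± 0.29 SE, adjusted p = 6.7e-05), and it was lower in both 2KO libraries than in either deltaEmu library. The J segments differed far less. Igkj4 fell 9.16-fold (log2 -3.19 ± 0.49, adjusted p = 0.0132) and Igkj3 5.74-fold (log2 -2.52 ± 0.53, adjusted p = 0.0437). Igkj2 (log2 -2.77 ± 0.62, adjusted p = 0.057) and Igkj5 (log2 -2.05 ± 0.54, adjusted p = 0.0986) did not pass 0.05, although their libraries did not overlap either. Igkj1 was left out by the filter on low counts. Of 16538 genes tested, 3.7% were called in this comparison, with 1.91% lower and 1.79% higher, and of the 5 members tested 3 were called lower. Igkj2 to Igkj4 passed the filter through their deltaEmu counts, and without the deltaEmu libraries only Igkj5 of the J segments passed it. With any 1 of the 4 libraries left out, Igkc stayed called (log2 -7.46 to -6.89), whereas Igkj3 and Igkj4 were not called (adjusted p 0.101 to 0.39). Igkj2 and Igkj5 did pass without a filter (4.8e-05 and 0.00319) and with the 4 libraries fitted alone (0.0351 and 0.0449), and Igkj2 with DESeq2 (0.0176).

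Between deltaEmu and RAG2_deficient the picture was similar. By name these groups differ at Rag2 and at the enhancer, and sex differs too. Igkc was 124-fold higher in deltaEmu (log2 6.96 ± 0.29, adjusted p = 4.74e-05). Igkj4 was 5.47-fold higher (log2 2.45 ± 0.47, adjusted p = 0.0176) and Igkj3 4.9-fold higher (log2 2.29 ± 0.53, adjusted p = 0.0339). Igkj2 (log2 2.04 ± 0.59, adjusted p = 0.0734) and Igkj5 (log2 2.08 ± 0.55, adjusted p = 0.056) did not pass. Igkj1 was not tested. In this same fit Igkj2 to Igkj4 passed the filter through their counts in deltaEmu, the higher group, so their calls are no independent support. In this comparison 9.81% of genes were called, 4.42% higher and 5.39% lower. Igkj3 lost its call without either deltaEmu library (adjusted p = 0.0899 and 0.239) or without RAG2_deficient replicate 2 (0.0563), and Igkj4 without either deltaEmu library (0.137 and 0.128). With the 4 libraries fitted alone Igkj3 did not pass (0.054) and Igkj5 did (0.0426), and without a filter Igkj2 (0.0024) and Igkj5 (0.00187) passed. The comparisons with 2KO and with RAG2_deficient share the deltaEmu libraries.

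Neither Igkc nor any of the 4 tested J segments was called between 2KO and RAG2_deficient. Igkc was at log2 -0.20 ± 0.25 (adjusted p = 0.756) and its libraries overlapped. The 4 tested J segments lay between log2 -0.74 and 0.03, with SE of 0.58 to 0.71. Differences of this size were not detectable with 4 to 14 reads per library on each segment. By group means Igkj1 (not tested), Igkj2 and Igkj4 were 3.45-, 1.66- and 1.63-fold lower in 2KO without overlap, while Igkj3 and Igkj5 overlapped. Here 4.31% of all genes were called, 1.26% higher and 3.05% lower. Kappa RNA was scarce in both groups, but RNA of the mu heavy chain gene Ighm only in 2KO. Ighm had 487 and 522 CPM in RAG2_deficient, 472 and 555 CPM in deltaEmu, and 4.33 and 5.92 CPM in 2KO (log2 -6.65 ± 0.29 against RAG2_deficient, adjusted p = 0.000156).

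SAHA left the 6 genes near their levels in LPS_IL4. Igkc differed by log2 0.00 ± 0.29 (adjusted p = 0.999). The J segments lay between log2 -0.31 (Igkj2, SE 0.26, adjusted p = 0.939) and -0.03 (Igkj5, SE 0.25, adjusted p = 0.988). Igkj2 alone did not overlap between the groups, and the other 5 genes did. With 2 against 2 libraries an exact permutation p cannot fall below 0.333, so this separation alone shows no difference. The share of all genes without overlap was not counted. With edgeR, 0% of 13913 genes were called in this comparison, 187 had an unadjusted p below 0.05, and DESeq2 also called 0. Titles and treatment fields give SAHA to the samples that the descriptions, used here, leave without it, and following them would turn every sign. By the pool names, each pool gave 1 untreated and 1 treated culture. The differences between the pools correlated negatively between the treatments (-0.44 over 17483 genes), so this pairing is uncertain. With the pool as a replicate block Igkc stood at log2 0.02 ± 0.48.

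LPS_IL4 and deltaEmu, the neighbours in the order of levels, differ in organ, culture and enhancer allele at once, and by the strain field in strain, and these cannot be told apart. Igkc was 1.51-fold higher in LPS_IL4 and did not pass (log2 0.60 ± 0.26, adjusted p = 0.0786). It passed with DESeq2 (adjusted p = 0.0449) and without LPS_IL4 replicate 6 (0.0131). All 5 J segments were called higher, from 3.85-fold for Igkj4 (log2 1.94 ± 0.37, adjusted p = 0.00172) to 5.48-fold for Igkj1 (log2 2.45 ± 0.40, adjusted p = 0.000654). Igkj1, left out by the filter in the femoral fits, passed it here through its spleen counts (47 to 72, against 9 and 11 in deltaEmu). Its call is therefore no independent support. Calls were common in this comparison, at 53.1% of 17483 genes, with 20.9% called higher. Without a test, the group mean of Igkc in LPS_IL4 was 194 times that of RAG2_deficient and 217 times that of 2KO, and the J segments were 9.29 to 22.5 times and 20.8 to 36.6 times.

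**Figure D3:**
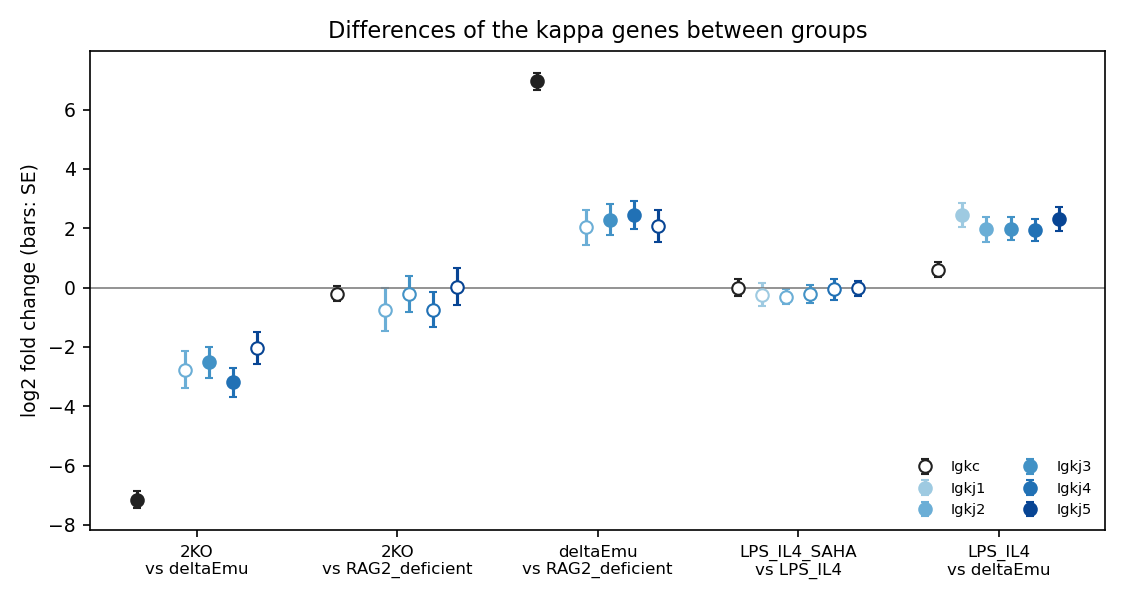
Log2 fold change of each kappa gene in the 5 comparisons, with bars for SE, filled points for genes called at an adjusted p of 0.05 and open points for genes not called. Igkc moves by about 7 log2 units between deltaEmu and the other femoral groups, the J segments by 2.04 to 3.19, and Igkj1 is missing where it was not tested.

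The balance of J to constant counts differed between the groups. J segments together had 3.1% and 4.15% of the J plus Igkc counts in LPS_IL4, and 3.8% and 2.59% in LPS_IL4_SAHA. In deltaEmu they had 1.03% and 1.54%, the lowest values of all libraries. In RAG2_deficient the share was 23.7% (28 of 118 counts, exact Clopper-Pearson 95% interval 16.4% to 32.4%) and 32.1% (45 of 140, 24.5% to 40.6%). In 2KO it was 22.4% (32 of 143, 15.8% to 30.1%) and 25.2% (27 of 107, 17.3% to 34.6%). The intervals cover counting error only. Every RAG2_deficient and 2KO interval lay above every interval of the other 6 libraries, and RAG2_deficient and 2KO overlapped each other.

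**Figure D4:**
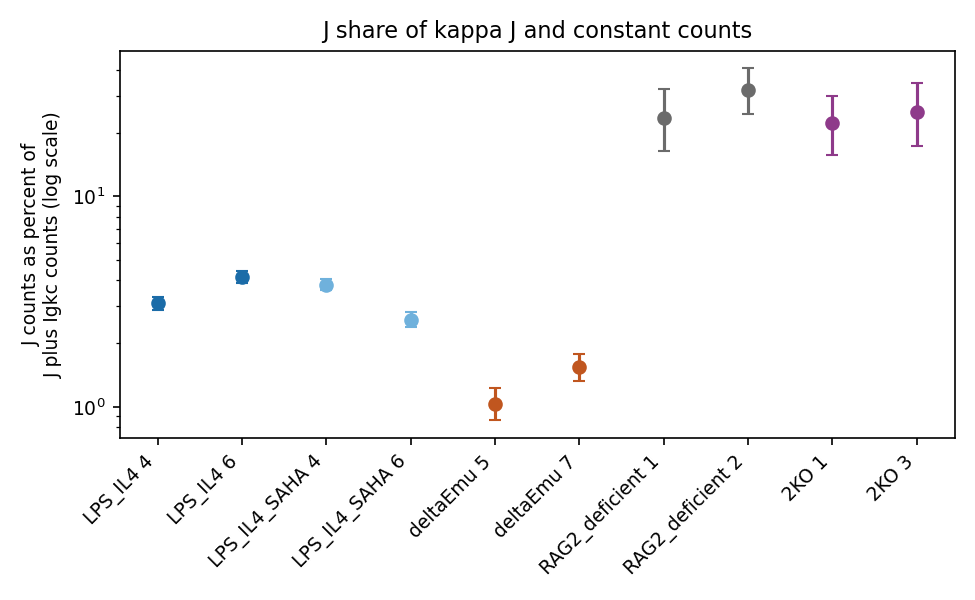
J counts as a percent of J plus Igkc counts in each library, on a log axis, with exact 95% intervals for counting error. Shares are 1.03% to 4.15% in the spleen and deltaEmu libraries and 22.4% to 32.1% in the RAG2_deficient and 2KO libraries.

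Per base of target, counts on the J genes (199 bases in all) came to 2.8% and 4.17% of those on Igkc in deltaEmu, and to 7.12% to 11.6% in the spleen libraries. In RAG2_deficient they came to 83.2% and 127%, and in 2KO to 77.1% and 90.2%. Reads longer than a J gene overlap it from outside, which raises values per base more for the short J genes than for Igkc. Such values are therefore not strictly comparable between genes of such different length, and do not show equal RNA of J and Igkc. By group means in CPM per kb, Igkc stood at 1195 in deltaEmu against 44.4 to 53.5 for Igkj2 to Igkj5, and, in the same unit, at 9.34 in RAG2_deficient against 8.37 to 10.6 for the 5 J segments.

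Kappa V segments, which supply the first part of the chain, had levels close to those of Igkc. The sum of 158 V entries was 563 and 742 CPM in deltaEmu, 5.1 and 7.22 CPM in RAG2_deficient, and 4.57 and 2.72 CPM in 2KO. V counts per Igkc count were 0.799 to 1.13 in the spleen and deltaEmu libraries and 0.762 to 1.57 in the others, which overlap. V segments have many near copies, so their counts are uncertain one by one.

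The split of J counts over the 5 segments was nearly even, apart from Igkj1. It does not measure how often each segment is joined. How reads that cross from a J segment into Igkc were counted is not given, and germline transcripts also run through the J segments. Over both LPS_IL4 libraries, Igkj1 took 8.26% of 1526 J counts (exact 95% interval 6.92% to 9.75%), Igkj2 21.4%, Igkj3 22.5%, Igkj4 21.7% and Igkj5 26.1%. Igkj3 had 20.5% to 25.4% of the J counts in every group, although functional chains do not use it. In LPS_IL4_SAHA, Igkj5 had 28.4% (26.2% to 30.8%) and Igkj2 19.1% (17.1% to 21.2%) of 1513 counts. In deltaEmu, Igkj1 had 6.45% of 310 counts and the other segments 22.6% to 24.2%. In RAG2_deficient, Igkj1 had 16.4% of 73 counts (8.79% to 27%), the highest share it had in a group, and this interval overlaps those of all other groups. In 2KO, Igkj5 had 32.2% of 59 counts (20.6% to 45.6%), with 43.8% in replicate 1 and 18.5% in replicate 3. The split was not distinguishable between the femoral groups at this depth.

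**Figure D5:**
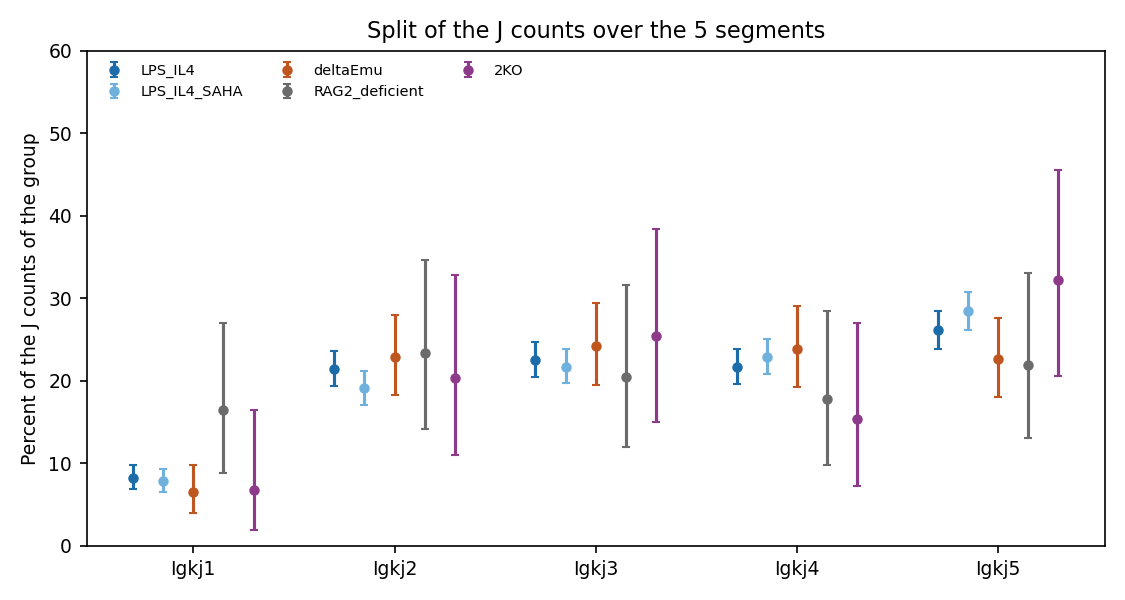
Percent of each group's J counts that fell on each J segment, over both libraries of the group, with exact 95% intervals for counting error. Igkj1 has 6.45% to 16.4% and the other segments 15.3% to 32.2%, with wide intervals in RAG2_deficient and 2KO.

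Partners of the kappa chain showed which other receptor parts moved. Of 11 genes, 5 fell in 2KO against deltaEmu and none rose (median log2 -0.72, against -0.01 over all genes tested). Of all genes, 1.91% were called lower there. Jchain, which links the units of secreted IgM and IgA, had 436 and 544 CPM in deltaEmu and 0.0476 and 0.0445 CPM in 2KO (adjusted p = 6.7e-05). Ighm fell 99.2-fold (adjusted p = 9.06e-05). The lambda constant genes Iglc2 (log2 -6.76 ± 0.48, adjusted p = 0.000453), Iglc1 (log2 -6.27 ± 0.49) and Iglc3 (log2 -2.12 ± 0.30) fell as well. Iglc2 and Iglc3 are near copies and may share reads. The surrogate light chain gene Igll1, which pairs with mu before kappa does, was not called. It averaged 103 ± 32.7 CPM (2KO) and 108 ± 35.3 CPM (deltaEmu).

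Against RAG2_deficient, 4.42% of all genes were called higher and 5.39% lower in deltaEmu, and 1.26% and 3.05% in 2KO. The 11 partner genes split. In deltaEmu 4 were higher (Jchain, Iglc1, Iglc2 and Iglc3) and 2 lower, the surrogate chain genes Igll1 (log2 -1.93 ± 0.31, adjusted p = 0.00954) and Vpreb2 (log2 -1.64 ± 0.42, adjusted p = 0.0472), with a median of -0.53, and without deltaEmu replicate 5 the number called fell to 3. In 2KO 4 were lower and none higher (Ighm, Igll1, Vpreb2 and the receptor subunit gene Cd79b), with a median of -1.79. Without 2KO replicate 3, Igll1 (adjusted p = 0.136) and Cd79b (0.307) were not called. The number of partners called there was 1 without that library, 2 with the 4 libraries alone (Cd79b at 0.104), 7 with DESeq2 or without RAG2_deficient replicate 2, and 10 without a filter. Neither Igkc nor a lambda constant gene of this list was called there. With SAHA none of 8 tested partners was called (median 0.27). In LPS_IL4 against deltaEmu all 11 were called, 6 higher and 5 lower, where 53.1% of all genes were called.

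Among 21 regulators known to act on the kappa locus, 1 was called in 2KO against deltaEmu and 2 in 2KO against RAG2_deficient. In deltaEmu against RAG2_deficient 3 were called. Of all genes, 3.7%, 4.31% and 9.81% were called in these comparisons. Every regulator called was lower, as were 1.91%, 3.05% and 5.39% of all genes. With so few regulators called, whether the list differs from these shares was not tested. The counts of regulators also moved with the fit. In 2KO against deltaEmu only Irf4 was called, a factor that binds the kappa 3′ enhancer. It had 27.2 and 32.2 CPM in 2KO, 57.3 and 71.3 CPM in deltaEmu and 46.5 and 57.4 CPM in RAG2_deficient (2.15-fold lower in 2KO than in deltaEmu, log2 -1.10 ± 0.20, adjusted p = 0.0245). The list median was 0.01, and the call was lost without any 1 of the 4 libraries (adjusted p 0.0839 to 0.262). With DESeq2 or the 4 libraries alone 2 regulators were called, and without a filter 3. Ikzf3, which encodes Aiolos, was at log2 -0.73 ± 0.29 and did not pass (adjusted p = 0.272).

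The B lineage factors Pax5 and Ebf1 were lower in 2KO than in RAG2_deficient (log2 -1.49 ± 0.31 and -1.62 ± 0.36, adjusted p = 0.0419 and 0.049), the only 2 of the 21 called (list median -0.05). Without RAG2_deficient replicate 1 the number called was 8, and with DESeq2 or no filter it was 4. In deltaEmu against RAG2_deficient 3 of the 21 were lower and none higher: Ebf1 (log2 -1.97 ± 0.36, adjusted p = 0.0156), Foxo1, a factor that activates the Rag genes (log2 -1.65 ± 0.31, adjusted p = 0.0167), and Pax5 (log2 -1.27 ± 0.31, adjusted p = 0.0403), with a list median of 0.11. Most of these calls ended without a library. For Pax5 and Ebf1 in 2KO this held for both 2KO libraries and RAG2_deficient replicate 2 (adjusted p 0.052 to 0.333), and with the 4 libraries fitted alone neither was called (0.0932 and 0.116). For Ebf1, Foxo1 and Pax5 in deltaEmu it held for both deltaEmu libraries (0.092 to 0.319), and for Pax5 also for RAG2_deficient replicate 2 (0.0866). In that comparison 6 regulators were called without RAG2_deficient replicate 1, and 5 without a filter. With SAHA none of the 21 regulators was called (median -0.21), nor any of 9 recombination genes or 3 neighbours tested. Without LPS_IL4 replicate 4, 6 regulators, 4 partners and 1 recombination gene were called for SAHA, and without LPS_IL4 replicate 6, 1 partner.

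In LPS_IL4 against deltaEmu 9 of the 21 regulators were called, in a comparison where 53.1% of all genes were. Of these regulators 6 were higher and 3 lower (list median 0.40, against -0.13 over all genes). Irf4 was 4.66-fold higher (267 and 333 CPM in LPS_IL4) and Ikzf3 6.39-fold higher. Spi1, which encodes PU.1, was 4.64-fold lower (log2 -2.22 ± 0.26, adjusted p = 8.12e-05). The neutrophil markers, a lineage that also expresses Spi1, summed to 18399 to 21039 CPM in deltaEmu and to at most 0.484 CPM in the spleen libraries. Their part in the Spi1 result was not tested.

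Of 12 recombination genes none was called between 2KO and deltaEmu (median -0.01), and 1 was called with the 4 libraries fitted alone. Against RAG2_deficient, 3 were lower in 2KO (median -0.36) and 4 lower in deltaEmu (median -0.48), where 3.05% and 5.39% of all genes were. Rag1, which cuts at the J segments, had 736 and 920 CPM in RAG2_deficient, 154 and 216 CPM in deltaEmu, and 258 and 141 CPM in 2KO (log2 -2.20 ± 0.35, adjusted p = 0.00917 for deltaEmu, and -2.08 ± 0.35, adjusted p = 0.0225 for 2KO). Dntt, which adds bases at the joints, and Xrcc6, which holds broken ends, were lower in both groups. Without either deltaEmu library the Rag1, Dntt and Xrcc6 differences of deltaEmu were not called (adjusted p 0.0659 to 0.269). Without 2KO replicate 3 none of the 3 was called in 2KO (0.162 to 0.33), and without 2KO replicate 1 Xrcc6 was not (0.0755). With the 4 libraries fitted alone none of the 12 was called in 2KO (Rag1 0.0684, Dntt 0.0735, Xrcc6 0.0932).

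The genes beside the kappa locus did not share the range of Igkc. Of 7 neighbours 4 were tested in the femoral libraries, and none was called in any of the 3 femoral comparisons (medians -0.22, -0.24 and -0.02). A single neighbour was called in 2KO against RAG2_deficient without a filter, and in deltaEmu against RAG2_deficient without RAG2_deficient replicate 1. Rpia, an enzyme of the pentose phosphate pathway, averaged 87.8 to 129 CPM in all 5 groups. Eif2ak3, the stress kinase PERK, averaged 42.8 to 68.8 CPM. Foxi3 had no read in any library. In LPS_IL4 against deltaEmu only Thnsl2 was called, at 0.208 and 0.912 CPM (adjusted p = 0.0211), and not without either LPS_IL4 library (0.063 and 0.099) or deltaEmu replicate 7 (0.109).

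Markers of B cell stages and of other lineages moved beside Igkc. Of all genes, 1.91% were called lower and 1.79% higher in 2KO against deltaEmu, and 4.42% higher and 5.39% lower in deltaEmu against RAG2_deficient. In 2KO against RAG2_deficient 1.26% of all genes were called higher and 3.05% lower. Plasma cell markers (10 genes) summed to 710 to 847 CPM in deltaEmu, of which Jchain alone averaged 490 CPM. They summed to 282 to 304 CPM in RAG2_deficient and 172 to 205 CPM in 2KO, where Jchain averaged 0.369 and 0.0461 CPM. Of the 10 plasma cell markers, 3 were lower in 2KO than in deltaEmu. In deltaEmu against RAG2_deficient 3 were higher (Jchain, Tnfrsf17 and Derl3) and 1 lower (Slamf7). Mature B cell markers (10 genes) summed to 915 to 942 CPM in deltaEmu, 504 to 550 CPM in RAG2_deficient and 467 to 603 CPM in 2KO, with 5 of 10 lower in 2KO than in deltaEmu and Ighd without a read in 2KO. Ms4a1, which encodes CD20 of mature B cells, had 16.7 and 23 CPM in deltaEmu and at most 1.07 CPM in the other femoral libraries. None of 10 pro-B markers was called between 2KO and deltaEmu, while 9 of 9 erythroid markers were higher in 2KO. The pro-B markers summed to 2973 to 3353 CPM in RAG2_deficient, 1085 to 1430 CPM in deltaEmu and 938 to 1369 CPM in 2KO. In deltaEmu against RAG2_deficient all 8 stromal markers were lower and 5 of 10 neutrophil markers higher. In 2KO against RAG2_deficient, where Pax5, Ebf1, Rag1, Dntt and Igll1 were lower, the 5 of 10 pro-B markers called lower are these genes, and 5 of 8 stromal markers were lower and 4 of 9 erythroid markers higher. The 8 T cell markers summed to 15.2 to 34.1 CPM over all libraries, with 4 higher and 1 lower in deltaEmu than in RAG2_deficient and none called between 2KO and deltaEmu. The part of these cells in the kappa results was not tested.

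The spleen libraries held up to 6543 CPM of the mature B cell markers. All 10 were called higher in LPS_IL4 than in deltaEmu, as were 20.9% of all genes. Plasma cell markers summed to 735 to 756 CPM in LPS_IL4, within the range of deltaEmu, and to 626 to 647 CPM in LPS_IL4_SAHA, below it. In LPS_IL4, Jchain was at 24.4 ± 6.72 CPM against 490 ± 76.3 CPM in deltaEmu. Jchain was thus 20.1-fold lower in LPS_IL4 (log2 -4.33 ± 0.34, adjusted p = 6.38e-06), where Igkc was 1.51-fold higher.

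The genes most like Igkc were ranked by Pearson correlation of log2(CPM + 0.5). The libraries fall into groups of high and low Igkc, so these values describe that contrast and carry no test. Over all 10 libraries and 10777 genes, without antigen receptor segments, the closest was Il9r, the interleukin 9 receptor (r = 0.989, Spearman 0.9), with 11, 13.5, 6.64, 0.191 and 0.351 CPM on average in LPS_IL4, LPS_IL4_SAHA, deltaEmu, RAG2_deficient and 2KO. Gem, a small GTPase gene, followed (r = 0.98), then Zfp473, Fam129c, Ppfibp2, H2-K2, Dnaja1 and Nmnat1 (r = 0.961 to 0.974). Their ranges were smaller, such as 26.5 to 112 CPM for Fam129c. H2-K2 may share reads with related class I genes.

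Over the 6 femoral libraries the closest of 10512 genes was Jchain (r = 0.998, Spearman 0.94), followed by the interferon-inducible gene Ifi202b, Fbxw10, G0s2, Cd28, Fam102b, Fcmr and Il9r (r = 0.993 to 0.997). Ifi202b averaged 78.3 CPM in deltaEmu and at most 0.0242 CPM in every other group, including the spleen groups with high Igkc. The cause of this difference was not tested. Fcmr, the receptor for the Fc part of IgM, averaged 7.31 CPM in deltaEmu and 0.151 and 0.138 CPM in RAG2_deficient and 2KO. Il9r was the only gene among the closest 8 of both rankings.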

How the data were processed

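RNA was measured in 10 libraries made with a stranded total RNA kit from 500 ng of RNA, per the labels' protocols. The authors deposited raw read counts per gene. Per the submitters' processing notes, the tools were STAR 2.4.0a and featureCounts (Subread 1.4.6-p1), with mm10/GRCm38. Not given in the sources used here are the annotation release, the strand setting, and how reads that match several genes or places were counted. The start and end of all 6 genes equal those in GENCODE M21. The deposited table also gives gene lengths, and 100 control entries were left out. Columns were assigned by sequencing index, an assignment settled with marker levels known. The members and the 11 gene lists were chosen with earlier results of these data known.

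Genes were tested with edgeR 4.0.16 in R 4.3.3: filterByExpr (minimum count 10), TMM and quasi-likelihood F tests. P-values were adjusted by Benjamini-Hochberg over every gene in a fit, with calls at 0.05. Fits used the 6 femoral libraries (3 residual degrees of freedom), the 4 spleen libraries (2) or all 10 (5). Fold changes come from these fits, levels from the scale of all 10 libraries, with SD over n = 2. Nothing says that pools came from separate animals, so p-values measure the spread between these libraries. The gene rule took the 6 members, the top 3 genes of each list by adjusted p and the 8 genes most like Igkc. Genes named outside it were chosen after their values were seen, and not every gene it took is given. The fits were tested on simulated data. Alternatives were DESeq2 1.42.0 and its size factors, no filter, library sizes without immunoglobulin, mitochondrial and ribosomal RNA genes, fewer libraries, and the pool as a block. The spleen pairing comes from pool names shared by both treatments. Between the pools, the differences in LPS_IL4 and LPS_IL4_SAHA correlated at -0.44 over 17483 genes, so the pairing is uncertain.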

Additional observations from a re-analysis of the deposited data

How the results depend on the processing

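Igkc kept its direction and call in 2KO against deltaEmu (log2 -7.46 to -6.89) and in deltaEmu against RAG2_deficient (6.86 to 7.07) under all 9 alternatives each. In 2KO against RAG2_deficient it was not called under any and ran from -0.50 to 0.08, the positive value without 2KO replicate 3. For SAHA, where its value is 0.00, the sign turned with DESeq2 size factors (0.00), DESeq2 (0.02), no filter (0.03), the replicate block (0.02) and leaving out single libraries (-0.22 to 0.31), with no call. The fit paired by crossed pools, chosen after seeing the data, gave 0.02 for Igkc and called 0 genes, as did the block. For LPS_IL4 against deltaEmu, Igkc became called with DESeq2 (0.63), no filter (0.68) and without LPS_IL4 replicate 6 (0.97), with 0.31 to 0.97 over the fits without 1 library. J segments that were not called changed sign in 2KO against RAG2_deficient (without 1 library, Igkj3 -0.51 to 0.20 and Igkj5 -0.93 to 0.63) and for SAHA (Igkj5 0.00 without a filter, and without 1 library Igkj1 -0.49 to 0.02, Igkj3 -0.53 to 0.09, Igkj4 -0.57 to 0.35 and Igkj5 -0.20 to 0.16). The counts of called genes moved over 1.5-fold. Without a filter they were 1537, 1971, 3308 and 145 in 2KO against deltaEmu, 2KO against RAG2_deficient, deltaEmu against RAG2_deficient and for SAHA. With the 4 libraries compared alone, the first and the second were 1580 and 213, and the second was 1156 with DESeq2. Without 1 library the ranges were 119 to 420, 153 to 3222, 259 to 5401 and 0 to 2670. Without Igkj3 the J share was 2.84% in LPS_IL4 and 18.8% in 2KO. The causes were not tested. J counts of 2 to 14 per library limit what can be seen in RAG2_deficient and 2KO.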
